A study of Mus musculus with 39 samples.

Results

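In 7 of 39 mice, transcripts of interferon-induced genes in the scraped lining of the proximal small intestine stood far above those of the other 32 mice. The 7 mice were chosen by the level of 1 gene, Ifit3, which is transcribed in response to interferon and encodes an antiviral protein. A mouse was put in the interferon-high group where Ifit3 exceeded 100 CPM (the gene's counts relative to library size, scaled with TMM factors). Of these mice, 3 ate the galactose diet (galactose 3, 8 and 9, title numbers 7, 53 and 56), 2 the lactose diet (lactose 3 and 9, title numbers 8 and 55) and 2 the glucose diet (glucose 8 and 9, title numbers 52 and 57). Across all tested genes, the antiviral effectors, the genes that join ISG15 to proteins and the MHC class I pathway were higher in these 7 mice, and counts of both interferon lambda genes were found in each of them.

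The mice were female C57BL/6JRccHsd mice, weaned at 21 days of age and killed at 42 days in the fed state. For the 3 weeks between, each ate 1 of 3 diets of equal energy, and 13 mice were on each diet. The galactose diet drew 16 en% from galactose and 16 en% from glucose, the lactose diet 32 en% from lactose and the glucose diet 32 en% from glucose. Shared by all groups were protein and fat at 20 en% each, starch at 32 en% and fructose at 3 en%. RNA came from scrapings of the upper part of the small intestine beyond the first 2 cm of the duodenum, made to collect mainly enterocytes. No mouse was labelled as infected or treated with interferon, and the labels name neither cages nor litters.

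Interferons of types I and III are secreted when a cell senses foreign nucleic acid. Type I interferons (alpha and beta) bind the receptor of Ifnar1 and Ifnar2, type III interferons (lambda) bind Ifnlr1 with Il10rb, and type II interferon (gamma) binds Ifngr1 with Ifngr2. Types I and III act through JAK kinases and a complex that holds STAT2 and IRF9, which binds the interferon-stimulated response element in promoters. In the intestinal epithelium the lambda receptor is known as a main route of the antiviral response.

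The element can be seen in the promoters of genes the results turn on. It was searched as GAAANNGAAA on either strand (written TTTCNNTTTC on the other), overlapping matches included, from 250 bases before to 50 bases after each start site in the RefSeq promoter table (build GRCm38.p6). At least 1 match lay in 3.99% of the 27025 genes of that table (1079 genes). Among the lists used here, 10 of 11 matched interferon-inducible GTPase genes (90.9%), 29 of 46 antiviral effectors (63.0%) and 5 of 20 class I genes (25%) held one, as did 1 of 11 chemokine genes (9.09%), 1 of 16 cell death genes (6.25%), 0 of 5 ISG15 conjugation and PARP genes, 2 of 12 pancreatic genes (16.7%), 0 of 7 class II genes and 0 of 15 clock genes. The lines show 100 bases around the matches, each from within the 250 bases before the start site and with its distance from it, read 5′ to 3′ along the gene's strand, with the matches in capitals.
Ifit3, chr19:34583362-34583461, plus strand, 167 to 68 bases before the start: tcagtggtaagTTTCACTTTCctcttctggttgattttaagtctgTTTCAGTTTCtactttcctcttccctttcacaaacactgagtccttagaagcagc
Ifit3b, chr19:34607758-34607857, plus strand, 199 to 100 bases before the start: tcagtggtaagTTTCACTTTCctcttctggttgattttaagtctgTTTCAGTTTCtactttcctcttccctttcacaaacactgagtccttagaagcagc
Ifit1, chr19:34640759-34640858, plus strand, 130 to 31 bases before the start: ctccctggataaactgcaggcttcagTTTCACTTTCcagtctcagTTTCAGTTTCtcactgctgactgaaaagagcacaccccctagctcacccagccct
Isg15, chr4:156200830-156200929, minus strand, 111 to 12 bases before the start: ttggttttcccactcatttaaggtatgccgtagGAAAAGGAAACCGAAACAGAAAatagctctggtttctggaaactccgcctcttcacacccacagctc
Rsad2, chr12:26456518-26456617, minus strand, 165 to 66 bases before the start: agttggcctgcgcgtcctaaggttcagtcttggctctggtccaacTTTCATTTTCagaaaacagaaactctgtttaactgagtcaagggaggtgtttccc
Igtp, chr11:58199456-58199555, plus strand, 100 to 1 bases before the start: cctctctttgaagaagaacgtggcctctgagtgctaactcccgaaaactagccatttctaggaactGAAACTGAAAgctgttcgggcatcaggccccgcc
Oas1a, chr5:120907526-120907625, minus strand, 100 to 1 bases before the start: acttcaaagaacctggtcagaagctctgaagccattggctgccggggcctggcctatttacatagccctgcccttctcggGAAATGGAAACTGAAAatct
Cxcl10, chr5:92349040-92349139, minus strand, 250 to 151 bases before the start: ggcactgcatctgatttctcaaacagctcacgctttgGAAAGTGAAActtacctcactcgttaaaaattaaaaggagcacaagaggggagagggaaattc
The windows of Ifit3 and its neighbour Ifit3b are the same in all 100 bases. A match is a description of the letters and was not tested as a binding site.

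Ifit3 set the groups, and its values are therefore given without a test. It measured 659 CPM in glucose 8, 631.2 CPM in lactose 9, 530.6 CPM in galactose 9, 387.8 CPM in galactose 3, 272.3 CPM in glucose 9, 262.7 CPM in galactose 8 and 132.8 CPM in lactose 3, against 5.64 to 57.4 CPM in the other 32 mice (median 16.9 CPM). The mouse just inside the limit was lactose 3 at 132.8 CPM, and the mice just outside it were galactose 7 at 57.4 CPM, galactose 6 at 41.5 CPM and galactose 4 at 37.8 CPM. No library lay between 57.4 and 132.8 CPM. The lowest interferon-high mouse thus stood closer to the nearest other mouse than to the highest interferon-high mouse.

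**Figure D1:**
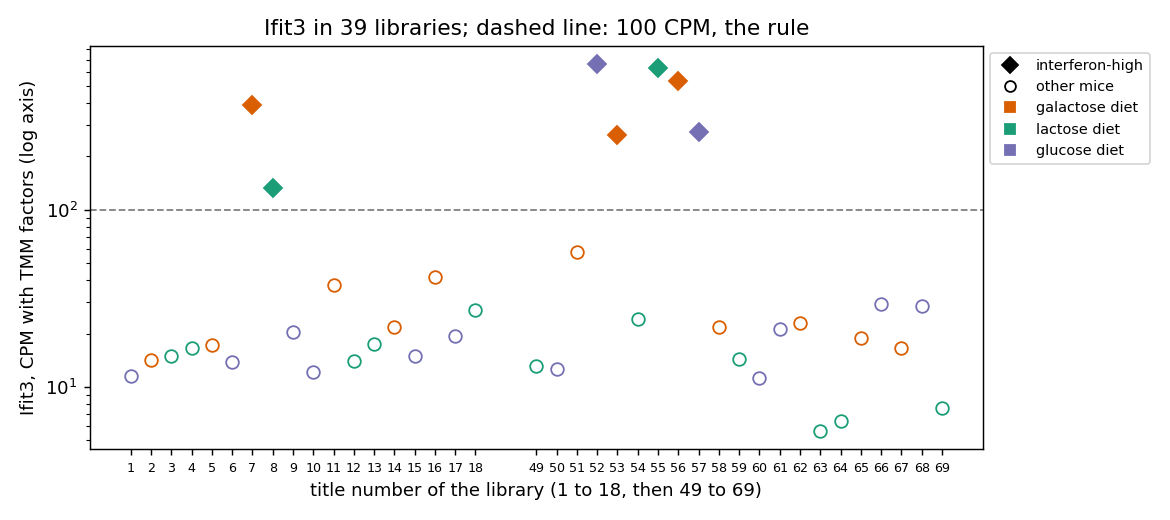
Ifit3 in CPM (log axis) in each library, by title number, with diets in colour. Filled diamonds are the 7 interferon-high mice (132.8 to 659 CPM) and open circles the 32 other mice (5.64 to 57.4 CPM), and the dashed line is the limit of 100 CPM.

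The 7 mice were spread over the diets, with 3 of 13 on galactose, 2 of 13 on lactose and 2 of 13 on glucose (two-sided Fisher's exact test, p = 1). They were not spread evenly over the title numbers, which run from 1 to 18 and from 49 to 69. Both interferon-high mice of the first run carried neighbouring numbers (7 and 8), and the 5 of the second run carried 52, 53, 55, 56 and 57. Each set of 3 consecutive numbers holds 1 mouse per diet, and the 7 mice came from 3 of the 13 such triplets. In 1 triplet (55, 56 and 57) all 3 mice were interferon-high. The remaining mice of the other 2 triplets were lactose 8 (number 54) with 24.2 CPM and glucose 3 (number 9) with 20.4 CPM of Ifit3. Fisher's exact test takes the mice as separate draws. The 3 mice of a triplet are on 3 different diets, which holds the split near even, so the test cannot tell whether diet mattered. What the title numbers stand for is not given in the labels.

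Libraries held 19685385 to 21350610 gene counts, and of 56980 genes 14658 were tested, 14657 without Ifit3. Of 9 library measures (total counts, 3 shares of uncounted reads, TMM factor, and shares of the 10 most abundant, mitochondrial, immunoglobulin and ribosomal protein genes) none differed between the groups by an exact permutation test within diets. The smallest p was that of the TMM factor, 0.975 ± 0.0538 in interferon-high and 1.01 ± 0.0627 in other mice (SD, n = 7 and 32; exact permutation p = 0.0599, adjusted p = 0.302). Ribosomal protein genes took 0.975 ± 0.235% of counts in interferon-high and 1.17 ± 0.246% in other mice (adjusted p = 0.302). Within title numbers 49 to 69 the ribosomal protein share had an adjusted p of 0.067. Galactose 4, 1 of the other mice, carried pancreatic transcripts (Pnliprp1 at 3087 CPM), while the interferon-high libraries had at most 0.694 CPM of Pnliprp1. Enterocyte markers were abundant in both groups, with Sis at 4092 to 6150 CPM in interferon-high and 2983 to 8018 CPM in other mice, and Vil1 at 3252 to 4203 CPM in interferon-high and 2327 to 4389 CPM in other mice.

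Across all genes, 802 were higher in interferon-high mice (5.47% of those tested) and 415 lower (2.83%), in edgeR's quasi-likelihood test with diet as a covariate and Benjamini-Hochberg adjusted p under 0.05. Since the mice were selected on an interferon-induced gene, calls of other such genes show what went with Ifit3 and are not independent of the choice. Differences of over 2-fold were found in 153 of the higher and 7 of the lower genes, and 60 higher genes exceeded 4-fold and 29 exceeded 8-fold. All 7 interferon-high mice lay above all 32 other mice in 100 genes (0.682% of those tested), and below all of them in 1 gene. The lists of interferon pathway genes held 110 of the 802 higher genes and none of the 415 lower ones. These lists were written with earlier results of these data known, and their tested members are counted list by list below. With 2.83% of all tested genes lower, lists of this size would hold few lower genes in any case. With library totals in place of TMM factors the split was 532 higher and 738 lower, with a shift of the median gene of -0.06 on the log2 scale. With triplets as a block 190 genes were higher and 43 lower, a fit in which only galactose 3, lactose 3, glucose 8 and galactose 8 are set against a mouse of their own triplet. The count of lower genes was 239 without lactose 9, 245 without glucose 8 and 260 without galactose 9.

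**Figure D2:**
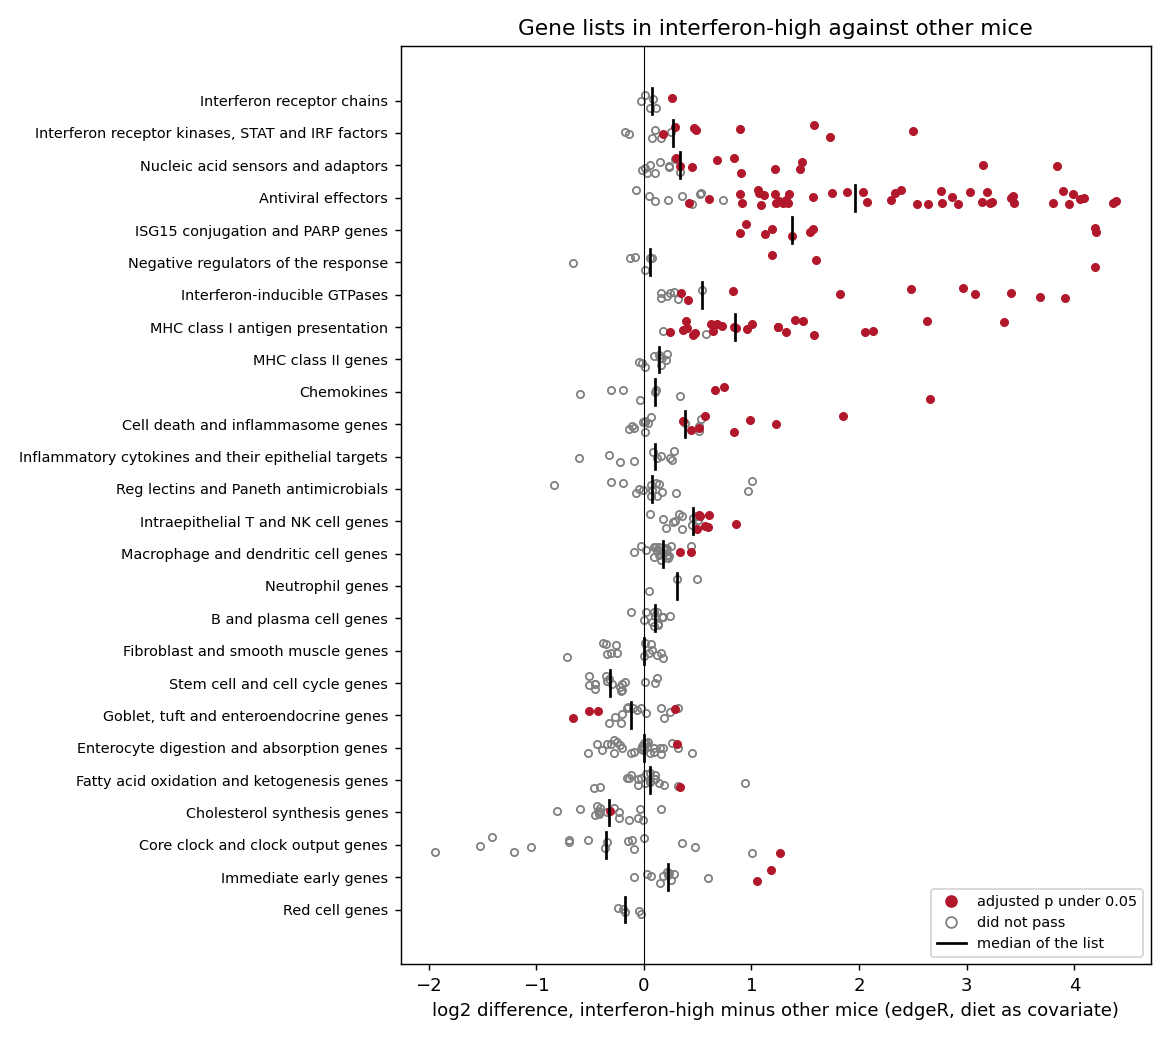
Log2 difference between interferon-high and other mice for each tested gene of 26 lists (pancreatic genes and Ifit3 are left out). Filled points passed at adjusted p under 0.05, open points did not, and black bars mark list medians, from 1.96 for antiviral effectors and 1.37 for ISG15 conjugation and PARP genes to -0.35 for clock genes.

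Among the interferon genes themselves, both interferon lambda genes were counted in all 7 interferon-high mice. Ifnl2 had 14, 11, 9, 5, 25, 10 and 11 counts in galactose 3, lactose 3, glucose 8, galactose 8, lactose 9, galactose 9 and glucose 9, against 2 counts in lactose 8 and 0 in each of the other 31. Ifnl3 had 17, 8, 13, 5, 11, 7 and 9 counts in the same 7 mice and 0 counts in all 32 others. Every interferon-high mouse thus exceeded every other mouse in both genes. Per effective library size Ifnl2 was 200.4-fold higher in interferon-high mice (95% exact counting interval 53.8 to 1681), and Ifnl3 at least 110.0-fold higher, taking 3 counts over the 32 mice as the most that 0 counts allow. Both bounds cover counting error only, and both genes fell below the expression filter, so that neither was tested. The open reading frames of Ifnl2 and Ifnl3 are 97.1% identical, and how the counting split reads between them, or left out reads that fit both, is uncertain. The sum of both was 10 to 36 counts per interferon-high mouse and 0 to 2 per other mouse.

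The type I and type II interferon genes examined were near 0 in both groups. Of the interferon alpha genes only Ifna1, Ifna2, Ifna4 and Ifna5 were examined. Ifnb1, the interferon beta gene, had 1 count each in glucose 8 and lactose 9 and 0 counts in the other 32 mice. Ifna2 had 1 count in lactose 9 and 0 in the other 32 mice, while Ifna1, Ifna4 and Ifna5 had 0 counts in all 39. Ifng, the gamma interferon gene, had 0 counts in interferon-high mice and 2 in the others. Ifnk had 1 count in interferon-high mice and 3 in the others, and Ifne and Ifnz had 0 counts in interferon-high mice and 1 each in the others. A group's total of 0 allows up to 3 counts, so differences in these genes were not detectable at this depth.

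**Figure D3:**
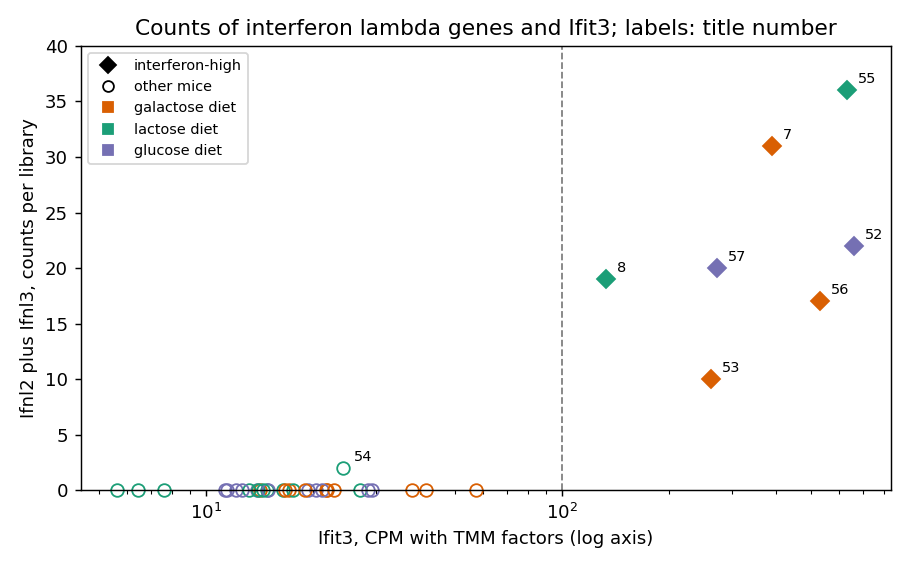
Sum of Ifnl2 and Ifnl3 counts in each library against Ifit3 in CPM (log axis), with diets in colour and title numbers beside libraries that have counts. The 7 interferon-high mice (filled diamonds) had 10 to 36 counts, and of the 32 other mice (open circles) only number 54, lactose 8, had any, with 2.

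Of 6 chains of the interferon receptors only Ifngr1, a chain of the gamma interferon receptor, passed (log2 0.27, SE 0.07, adjusted p = 0.0116), and it no longer did with library totals (adjusted p = 0.0918), without glucose 8 (adjusted p = 0.113) or with triplets as a block (adjusted p = 0.701). Ifnlr1, the specific chain of the lambda receptor, measured 30.2 to 40.1 CPM in interferon-high mice (median 34.8) and 25.2 to 46.8 CPM in the others (median 35.4). Its log2 difference was 0.01 (SE 0.08, adjusted p = 0.977). Ifnar1 measured 38.2 to 48.8 CPM in interferon-high and 33.9 to 52.0 CPM in other mice (log2 -0.03, SE 0.06, adjusted p = 0.834). Ifnar2, Il10rb and Ifngr2 had log2 differences of 0.11, 0.06 and 0.09 and did not pass. The calls changed when the level of Dbp, a clock output gene, was added to the edgeR fit as a further term. Ifnar2 (log2 0.30, adjusted p = 0.0187) and Il10rb (log2 0.25, adjusted p = 0.00759) then passed, and Ifngr1 did not (log2 0.16, adjusted p = 0.11).

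Below the receptors, 8 of 14 tested kinases and transcription factors were higher and none was lower. Stat2, a part of the factor that binds the element, measured 81.3 to 193 CPM in interferon-high mice (median 149) and 32.0 to 59.0 CPM in the others (median 43.2), with no overlap (log2 1.73, SE 0.10, adjusted p = 1.5e-17). Irf9, another part, was higher by 0.89 on the log2 scale (adjusted p = 6.34e-13). Irf7, a factor that drives interferon genes and is itself induced, reached 258.4 to 884.3 CPM in interferon-high mice against 58.3 to 206.7 CPM in the others (log2 2.50, SE 0.15, adjusted p = 3.29e-17). Irf8 (log2 0.46) and Irf1 (log2 0.49) were higher by less. In the list 5 genes passed with triplets as a block, and Irf1 did not (adjusted p = 0.103). The kinases Jak1 and Tyk2 had log2 differences of 0.08 and -0.14 and did not pass (adjusted p = 0.451 and 0.151).

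Of 21 nucleic acid sensors and adaptors, 11 were higher. Dhx58, which encodes the RNA-binding helicase LGP2, was 8.85-fold higher, at 31.1 to 128.6 CPM in interferon-high and 4.82 to 20.4 CPM in other mice (log2 3.15, SE 0.16, adjusted p = 5.97e-19). The RNA sensors Ddx58 (RIG-I) and Ifih1 (MDA5) were 2.73-fold and 2.77-fold higher (adjusted p = 4.13e-17 and 6.54e-14), and their partner Trim25 was 1.87-fold higher (adjusted p = 9.17e-15). Zbp1, a sensor of Z-form nucleic acid that can trigger cell death, was 14.3-fold higher (adjusted p = 2.31e-17), although lactose 3 with 20.1 CPM fell below the highest other mouse at 22.6 CPM. Zc3hav1, an antiviral zinc finger protein, was 1.79-fold higher (adjusted p = 9.91e-15). The adaptors Mavs and Tmem173 (STING) did not pass, with log2 differences of 0.03 and 0.23.

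Antiviral effectors were the list with the highest median. Of 54 tested besides Ifit3, 45 were higher, none was lower and 9 did not pass, and 29 had all 7 interferon-high mice above all others. Rsad2, whose product viperin makes a chain terminator of viral RNA, measured 73.5 to 301.8 CPM in interferon-high mice (median 194.2) and 3.78 to 26.8 CPM in the others (median 8.16). The groups did not overlap, and the difference was 20.5-fold (log2 4.36, SE 0.20, adjusted p = 2.88e-20). Oas2, an enzyme that makes oligoadenylates on sensing double-stranded RNA, was 21.0-fold higher, at 6.90 to 77.3 CPM against 0.646 to 5.02 CPM in the other mice (adjusted p = 9.1e-20). Mx2, a GTPase of the antiviral Mx family, was 14.9-fold higher (9.34 to 40.8 CPM against 0.746 to 4.30 CPM in the other mice, adjusted p = 1.65e-20). Cmpk2, the neighbour of Rsad2 that supplies its nucleotide, was 7.57-fold higher, with an adjusted p of 6.48e-22 (156.4 to 414 CPM against 23.6 to 61.2 CPM in the other mice).

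The Ifit family, whose proteins hold viral RNA off the ribosome, moved with the gene that chose the mice. Ifit1 measured 244 to 913.4 CPM in interferon-high mice (median 458.3) and 16.7 to 99.99 CPM in the others (median 34.9), a 13.96-fold difference (adjusted p = 9.17e-19). Ifit1bl1 was 16.5-fold, Ifit3b 16.96-fold and Ifit2 6.83-fold higher (adjusted p = 2.39e-19, 2.45e-18 and 5.79e-17). Ifit3 and Ifit3b have open reading frames that are 99.1% identical. Reads that fit both may be left uncounted for lack of a unique alignment, or count for the other gene. The same holds for Oas1a and Oas1g (96.7%) and for Apol9a and Apol9b (98.5%). Trim30a, a regulator of inflammatory signalling, was 10.8-fold higher (adjusted p = 5.72e-19). Among members that did not pass, Ifitm1, a membrane protein that hinders virus entry, had a log2 difference of 0.23 (adjusted p = 0.331).

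All 9 tested genes of ISG15 conjugation and the interferon-linked PARP family were higher. Usp18, which removes ISG15 and damps receptor signalling, measured 76.0 to 339.3 CPM in interferon-high mice and 3.85 to 33.0 CPM in the others (18.2-fold, log2 4.19, SE 0.20, adjusted p = 5.07e-20). Herc6, the mouse ligase of ISG15, was 18.4-fold higher (adjusted p = 6.54e-19), and Isg15 itself, counted among the effectors, was 15.5-fold higher (167.9 to 664.6 CPM against 6.37 to 80.97 CPM in the other mice). The partners Dtx3l and Parp9 were 2.91-fold and 2.18-fold higher, and Parp12 and Parp14 2.97-fold and 2.59-fold higher (adjusted p between 1e-15 and 1.26e-12 for these 4). Of 9 negative regulators 3 were higher, among them Usp18 again. Socs1, which inhibits JAK kinases, was 3.02-fold higher (2.96 to 5.94 CPM against 0.746 to 2.87 CPM in the other mice, adjusted p = 3.52e-10, and 0.0607 with triplets as a block). Socs3, of the same family, had a log2 difference of -0.66 and did not pass (adjusted p = 0.118), but within title numbers 49 to 69 it fell by 1.07 (adjusted p = 0.00538), and within 1 to 18 it had 0.14. With the Dbp level as a further term in the fit of all mice, Socs3 had a log2 difference of 0.01 (adjusted p = 0.971). Adar, which edits the cell's own double-stranded RNA, was 2.28-fold higher (adjusted p = 2.01e-16).

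Interferon-inducible GTPases, which act on membranes around intracellular pathogens, were divided, with 10 of 17 higher and 7 not past the threshold. Igtp measured 81.0 to 294.7 CPM in interferon-high mice (median 189.6) and 4.87 to 32.9 CPM in the others (median 13.2), a 15.1-fold difference with no overlap (adjusted p = 2.55e-20). Irgm1 was 10.6-fold, Irgm2 8.41-fold and Ifi47 7.79-fold higher (adjusted p = 6.48e-22, 8.88e-22 and 1.65e-20). Gbp6 and Gbp7 were 12.8-fold and 3.52-fold higher (adjusted p = 4.29e-20 and 7.89e-16). The family members Gbp2, Gbp4 and Gbp5 had log2 differences of 0.32, 0.24 and 0.16 and did not pass (adjusted p = 0.173, 0.242 and 0.523).

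Class I antigen presentation was higher in 24 of 26 tested genes, by a median of 0.85 on the log2 scale. Tap1, which pumps peptides to class I molecules, measured 95.2 to 219.4 CPM in interferon-high mice (median 198.5) and 28.3 to 59.3 CPM in the others (median 41.5), a 4.14-fold difference (adjusted p = 3.41e-20). Nlrc5, the transactivator of class I genes, was 6.21-fold higher (adjusted p = 8.34e-17). The non-classical class I genes H2-T24 and H2-T22 were 10.1-fold and 2.65-fold higher (adjusted p = 1.24e-18 and 1.69e-16), and H2-Q6 and H2-Q4 4.38-fold and 2.50-fold higher (adjusted p = 6.58e-16 and 2.19e-15). The classical H2-K1 was higher by less, at 2233 to 3804 CPM in interferon-high and 1421 to 2466 CPM in other mice (1.60-fold, adjusted p = 2.92e-07). None of 10 class II genes passed in edgeR, DESeq2 or limma voom, and 0 had an unadjusted p under 0.05. H2-Aa, a class II chain, measured 109.5 to 174.1 CPM in interferon-high and 79.8 to 180.1 CPM in other mice (log2 0.21, SE 0.13, adjusted p = 0.337), and Cd74 and H2-Ab1 had log2 differences of 0.21 and 0.17.

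Of 10 tested chemokines 3 were higher, and all 3 are genes of the family that encodes ligands of CXCR3, a chemokine receptor of T cells. Their proteins were not measured. Only Cxcl10 of the 10 passed with triplets as a block (adjusted p = 0.0229). Cxcl10 measured 6.85 to 22.4 CPM in interferon-high and 0.848 to 5.75 CPM in other mice (6.29-fold, log2 2.65, SE 0.22, adjusted p = 1.81e-12). Cxcl11 was 1.68-fold higher (adjusted p = 0.0011), at 2.54 to 7.09 CPM against 1.52 to 6.58 CPM in the other mice. Cxcl9 was 1.58-fold higher (adjusted p = 0.0327), and it missed the threshold with library totals (adjusted p = 0.0516) and without lactose 9 (adjusted p = 0.13). Among 21 cell death genes 8 were higher, led by Mlkl, the executioner of necroptosis (18.3 to 59.6 CPM in interferon-high against 6.37 to 14.6 CPM in other mice, 3.60-fold, adjusted p = 2.35e-14). Casp8, which acts in apoptosis, was 1.42-fold higher, Casp1 and Casp4, which act in inflammation, 1.48-fold and 1.78-fold, and Tnfsf10, the death ligand TRAIL, 1.98-fold (adjusted p between 2.35e-10 and 1.63e-07). Of the cell death genes 3 passed with triplets as a block, Mlkl, Casp4 and Tnfsf10 (adjusted p = 0.00136, 0.0149 and 0.042). The necroptosis kinase Ripk3 had a log2 difference of 0.01 (adjusted p = 0.975). None of 10 cytokine genes passed in edgeR or DESeq2 (1 in limma voom, and 1 at an unadjusted p under 0.05), the smallest p being that of Il15ra (log2 0.24, adjusted p = 0.0908), and Il33 and Il1a had log2 differences of -0.32 and 0.28. None of 16 Reg lectin and Paneth cell genes passed by any of these tools (0 at an unadjusted p under 0.05), and Reg3b, a lectin of the gut lining, ranged from 40.6 to 1010 CPM in interferon-high and from 37.0 to 4063 CPM in other mice. Defa22 and Defa21, alpha-defensins of Paneth cells in a multigene family whose reads may be shared, had log2 differences of 1.00 and 0.97 (adjusted p = 0.411 and 0.431), which were below 0 without glucose 9 and in limma voom.

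Markers of other cells were examined beside these results. In RNA from whole scrapings, fewer cells of a type and less RNA per cell cannot be told apart. Of 19 tested T and NK cell genes 7 were higher (Gzmb, Cd8a, Gzma, Nkg7, Trdc, Xcl1 and Cd7), led by Gzmb, the granzyme of killer cells, at 15.4 to 29.2 CPM in interferon-high and 4.96 to 17.9 CPM in other mice (1.81-fold, adjusted p = 8.33e-05). Cd8a was 1.43-fold (adjusted p = 0.00512) and Gzma 1.49-fold higher (adjusted p = 0.00722), and Nkg7, Trdc and Xcl1 were 1.51-fold, 1.43-fold and 1.52-fold higher (adjusted p = 0.0108, 0.0322 and 0.0343). The summed level of the list was 120.3 to 184.6 CPM in interferon-high and 57.3 to 154.6 CPM in other mice. The T cell chain Cd3e did not pass (log2 0.49, adjusted p = 0.073), and Ncr1, which marks NK cells, was at or near 0 in both groups. Leaving out lactose 9 ended the calls of Gzma, Trdc and Xcl1 (adjusted p = 0.0521, 0.0872 and 0.216), and leaving out galactose 3 those of Trdc and Xcl1 (adjusted p = 0.0776 and 0.0626). With triplets as a block none of the 7 passed.

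Of 22 macrophage and dendritic cell genes only Mrc1 (log2 0.34, adjusted p = 0.0225) and Fcgr1 (log2 0.44, adjusted p = 0.029) were higher, and neither passed without galactose 3 (adjusted p = 0.0658 and 0.0981) or glucose 8 (adjusted p = 0.1 and 0.0754), or with triplets as a block (adjusted p = 0.581 and 0.49). By comparison, 5.47% of all tested genes were higher, and the 2 calls are not read as a result about these cells. The sum of the macrophage and dendritic cell list was 279.3 to 474.9 CPM in interferon-high and 198.9 to 454.8 CPM in other mice. Siglech, which marks plasmacytoid dendritic cells, was at 0.489 to 1.29 CPM in interferon-high and 0.140 to 1.55 CPM in other mice (log2 0.18, adjusted p = 0.712). The neutrophil markers S100a8, S100a9 and Ly6g had a median of 0 CPM in both groups, and none of 3 tested neutrophil genes passed in edgeR, DESeq2 or limma voom (1 at an unadjusted p under 0.05; Retnlg, Mmp9 and Csf3r had log2 differences of 0.50, 0.31 and 0.05). None of 13 B and plasma cell genes, 18 stem cell and cell cycle genes or 5 red cell genes passed by these tools or at an unadjusted p under 0.05. Of 15 fibroblast and muscle genes 0 passed in edgeR and DESeq2 (0 at an unadjusted p under 0.05) and 1 in limma voom, and of 4 pancreatic genes 0 passed by any of them (1 at an unadjusted p under 0.05). The plasma cell factor Xbp1, the muscle myosin Myh11 and the stem cell receptor Lgr5 had log2 differences of 0.13, -0.71 and -0.20. The part of these cells in the results above was not tested.

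A few genes of epithelial cells went the other way. Of 18 tested goblet, tuft and enteroendocrine genes 3 were lower and 1 higher. Fcgbp, a mucus protein of goblet cells, measured 1484 to 2663 CPM in interferon-high mice (median 2047) and 2345 to 4351 CPM in the others (median 3237), so that the groups overlapped only between 2345 and 2663 CPM (log2 -0.66, SE 0.10, adjusted p = 6.78e-06). Muc2, the main mucin of the gut, fell by 0.51 on the log2 scale (219.9 to 398.7 CPM in interferon-high against 305.9 to 642.9 CPM in other mice, adjusted p = 0.00226). Dclk1, a tuft cell marker, fell by 0.42 (adjusted p = 0.00931). Sct, the hormone secretin, was higher by 0.29 (adjusted p = 0.0456), and it did not pass when any 1 of 6 of the 7 mice was left out (adjusted p between 0.0558 and 0.179). With triplets as a block none of these 4 passed, and Muc2 had a log2 difference of -0.15 there. Of 30 digestion and absorption genes 1 was higher, the trehalase gene Treh (log2 0.30, adjusted p = 0.0103, and 0.731 with triplets as a block), a smaller share than the 5.47% of all tested genes. In this list DESeq2 called 1 gene and limma voom 5, 9 had an unadjusted p under 0.05 in edgeR, and 8 were higher with the Dbp level as a further term. Of 21 fatty acid oxidation genes 1 was higher in edgeR, a share near that of all genes, against 2 called in DESeq2 and 5 in limma voom. It was Acadl (log2 0.34, adjusted p = 0.0292), whose sign turned with triplets as a block (log2 -0.05). Acadl did not pass with library totals (adjusted p = 0.0624), with no diet term (0.283), at an Ifit3 limit of 50 CPM (0.0592), with the Dbp level as a term (0.0514), or without galactose 3, glucose 8, galactose 8, lactose 9 or galactose 9 (adjusted p between 0.054 and 0.156). Of 18 cholesterol synthesis genes 1 had a positive log2 difference, with a list median of -0.33 against -0.02 over all tested genes, and 9 had an unadjusted p under 0.05 in edgeR, and calls in this list are not reported here.

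Clock genes varied widely in both groups. Of 18 tested 1 passed in edgeR, against 5 in DESeq2 and 7 in limma voom. The edgeR share is near that of all tested genes, of which 5.47% were higher and 2.83% lower. The edgeR call was Nfil3, a repressor tied to the clock and to immune cells, at 3.26 to 25.3 CPM in interferon-high and 1.24 to 20.2 CPM in other mice (log2 1.27, adjusted p = 0.0159), and it did not pass without glucose 8 (adjusted p = 0.127) or with triplets as a block (adjusted p = 0.276). Within title numbers 49 to 69 there were 3 higher clock genes (Nfil3, Arntl and Cry1, log2 1.85, 1.61 and 0.53) and 3 lower ones (Dbp, Tef and Per3, log2 -2.19, -1.44 and -1.64), with adjusted p between 5.04e-04 and 0.0425. Dbp, a clock output gene, measured 2.05 to 147.7 CPM in interferon-high mice (median 7.91) and 0.787 to 210.7 CPM in the others (median 79.2). Its log2 difference of -1.94 (SE 0.70) missed the threshold (adjusted p = 0.08), and lactose 9 with 147.7 CPM stood apart from the other 6 interferon-high mice, which had at most 31.3 CPM. The clock genes Per3 and Arntl had log2 differences of -1.52 and 1.01 and did not pass (adjusted p = 0.0729 and 0.0706). With the Dbp level as a further term 1137 genes were higher and 804 lower, and Rsad2 had a log2 difference of 4.39. Of the immediate early genes Atf3 (log2 1.05, adjusted p = 2.26e-05) and Fosb (log2 1.18, adjusted p = 0.0242) were higher out of 13, Fosb not without galactose 3 (adjusted p = 0.129) and neither with triplets as a block (adjusted p = 0.288 and 0.476).

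Outside the lists 666 genes were higher and 411 lower, and interferon-induced genes may be among them. Spats2l, a gene of stress granules, was 8.03-fold higher (20.1 to 91.0 CPM in interferon-high against 4.62 to 13.3 CPM in other mice, adjusted p = 3.83e-21). Gm12250, whose promoter held 2 matches of the element, was 16.4-fold higher (24.3 to 85.3 CPM against 1.04 to 10.4 CPM in the other mice, adjusted p = 1.24e-19). Lgals3bp, a secreted galectin-binding protein, was 2.87-fold higher, at 606.8 to 1540 CPM in interferon-high and 305.4 to 449.8 CPM in other mice (adjusted p = 3.79e-18). The ubiquitin ligases Rnf31 and Rnf213 were 2.18-fold and 5.90-fold higher, Parp11 4.24-fold, Trafd1 2.68-fold, Trim12a 5.01-fold, Tor3a 3.28-fold and the chromatin protein Daxx 2.17-fold higher (adjusted p between 2.84e-18 and 1.66e-16). The predicted genes Gm6548 and Gm20559 were 2.48-fold and 5.60-fold higher. Of these 12 genes only Gm20559 had an interferon-high mouse, lactose 3, below the highest other mouse.

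Genes lower in interferon-high mice differed by less than 2-fold in all but 7 of 415. Ttc38 was the gene in which all 7 interferon-high mice lay below all others, at 24.9 to 29.0 CPM against 29.2 to 55.5 CPM in the other mice (log2 -0.42, SE 0.07, adjusted p = 7.37e-05). Klhl2, an adaptor of a ubiquitin ligase, had the smallest p, at 18.2 to 24.98 CPM in interferon-high and 24.5 to 34.2 CPM in other mice (log2 -0.49, SE 0.06, adjusted p = 7.66e-08). Lmnb2, a lamin of the nuclear envelope, fell by 0.48 (adjusted p = 1.92e-06) and the ligase gene Ube3b by 0.31 (adjusted p = 3.5e-06) on the log2 scale. Polr3g, a subunit of RNA polymerase III, fell by 0.90 (adjusted p = 9.61e-05). Lin7c, Mtx3, Usp34, Phkb, Slc25a16, Mmgt1 and Fam91a1 had log2 differences between -0.63 and -0.29 (adjusted p between 7.77e-06 and 1.35e-04). With triplets as a block Lmnb2, Ube3b, Usp34, Ttc38 and Mmgt1 did not pass (adjusted p = 0.388, 0.197, 0.108, 0.0872 and 0.108).

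**Figure D4:**
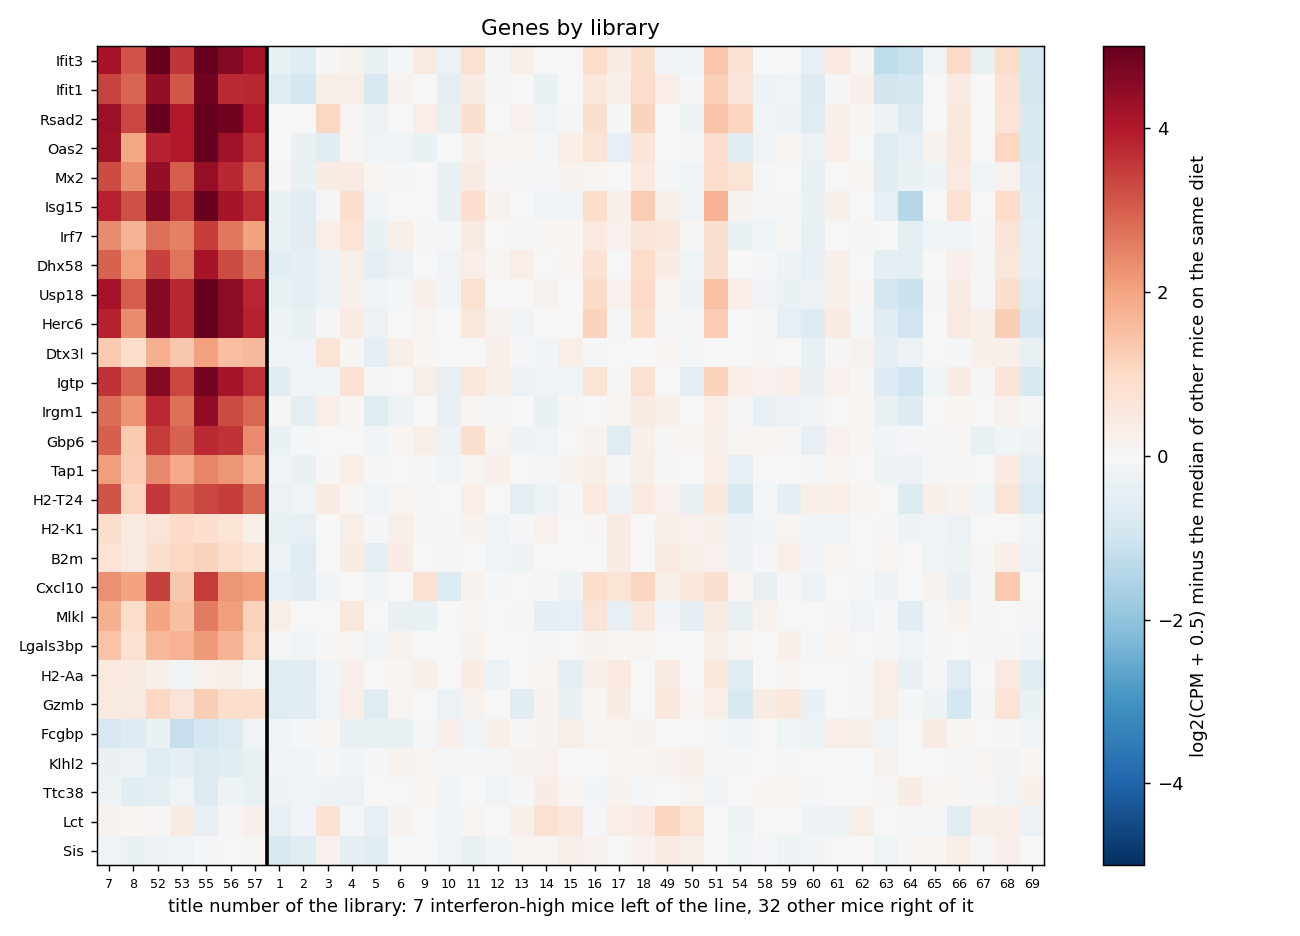
Log2(CPM + 0.5) of 28 genes in each library, minus the median of other mice on the same diet, with the 7 interferon-high mice left of the line and the 32 other mice right of it. Antiviral genes, GTPases and Tap1 are high in all 7 mice, least in lactose 3 (number 8), while H2-Aa, Lct and Sis show no such block.

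The 7 mice differed among themselves. The median difference of the antiviral genes from other mice of the same diet was 2.45 in lactose 9, 2.08 in galactose 9, 2.02 in glucose 8, 1.94 in galactose 3, 1.62 in galactose 8, 1.57 in glucose 9 and 1.09 in lactose 3, on the log2(CPM + 0.5) scale. In the 32 other mice that median ran from -0.39 to 0.46. Class I genes gave 1.14 in lactose 9 and 0.50 in lactose 3 at the ends, against -0.39 to 0.32 in the other mice, so that no other mouse reached the lowest interferon-high mouse in either list. For class II genes the medians overlapped, at -0.26 to 0.44 in interferon-high and -0.57 to 0.56 in other mice. Single genes did not follow 1 order, since Oas2 had 29.2 CPM in glucose 8, the mouse with the most Ifit3, and 49.1 CPM in galactose 8, which had 262.7 CPM of Ifit3.

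The comparison was repeated in separate mice. Within title numbers 1 to 18, with 2 interferon-high and 16 other mice, 135 genes were higher (0.921%) and 4 lower (0.0273%). Within numbers 49 to 69, with 5 and 16 mice, 682 were higher (4.65%) and 390 lower (2.66%). Called in both were 137 genes, which is 98.6% of the calls in the first run and 12.8% of those in the second, and all 137 had the same sign. Of the 682 genes higher in the second run 619 were also positive in the first, 515 of the 576 outside the interferon lists among them, and of the 390 lower ones 328 were negative. The median log2 difference over all tested genes in the first run was -0.02. Both runs were split by the same Ifit3 limit, and genes outside the lists may also be induced by interferon. Shared calls and signs, inside or outside the lists, are therefore no support for each other. Differences were mostly smaller in the first run, as with Rsad2 (log2 3.50 against 4.59 in the second) and Tap1 (1.65 against 2.18). Without galactose 3 the first run had 23 higher and 0 lower genes, and without lactose 3 it had 1 lower gene. The second run had 186 lower genes without glucose 8, 221 without galactose 8, 210 without lactose 9 and 183 without galactose 9.

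**Figure D5:**
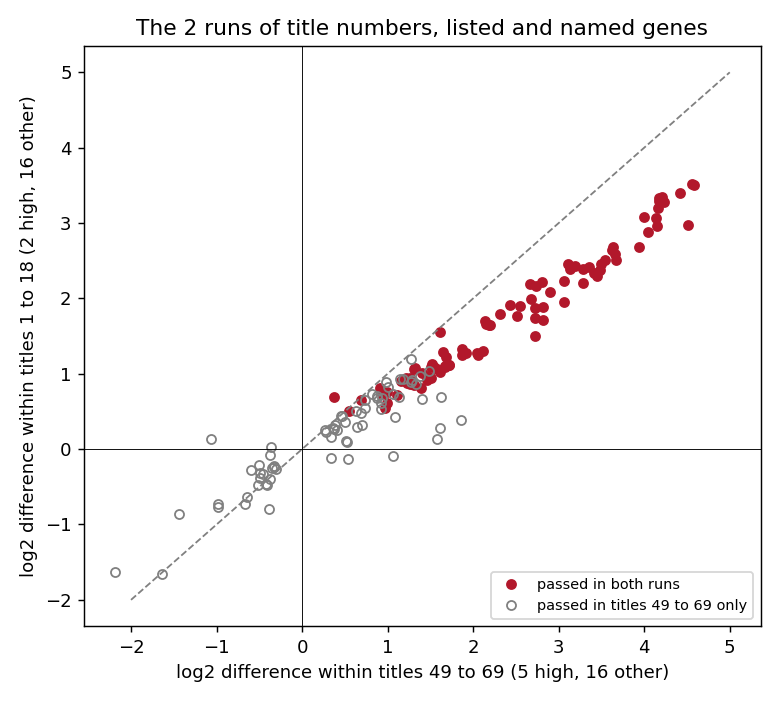
Log2 difference between interferon-high and other mice within title numbers 1 to 18 against that within 49 to 69, for 159 listed or named genes that passed in the second run. Filled points (90 genes) passed in both runs, and 89 of these lie nearer to 0 in the first run, below the dashed line of equality. Choosing genes by the second run favours larger values there.

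The 32 mice below the limit also varied in Ifit3, from 5.64 to 57.4 CPM, and their other genes were compared with that level. The slope on log2 Ifit3 passed in edgeR for 45 genes upward (0.307% of those tested) and 5 downward (0.0341%), and without galactose 7, the mouse with the most Ifit3, for 34 upward and 0 downward. Of the 45 genes 39 were also higher in interferon-high mice, as were 5.47% of all tested genes. Among the 45 were 20 of 54 tested antiviral effectors, 5 of 17 GTPases and 1 of 4 pancreatic genes. Galactose 4, the mouse with pancreatic transcripts, had 37.8 CPM of Ifit3, and the slope was not refitted without it. Ifit3 set the limit and is also the measure here, so these genes show what went with it and are no independent support. Usp18 changed by 0.84 on the log2 scale per doubling of Ifit3 (SE 0.05, adjusted p = 1.03e-12), Isg15 by 0.88 (adjusted p = 5.77e-09), Ifit1 by 0.80 (adjusted p = 2.88e-09), Igtp by 0.72 (adjusted p = 6.91e-09) and Dhx58 by 0.58 (adjusted p = 2.79e-07). Tap1 was the class I gene that passed, with 0.24 (adjusted p = 0.0106), while Cmpk2 did not pass (slope 0.27, adjusted p = 0.116). Among these mice Ifnl counts were found only in lactose 8, which had 24.2 CPM of Ifit3.

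The difference between interferon-high and other mice did not depend detectably on the diet. In edgeR's test of the diet by group interaction 0 genes passed (0%), with 783 genes at an unadjusted p under 0.05, and 0 passed with library totals. Rsad2 was higher by 4.10, 4.20 and 4.82 on the log2 scale on the galactose, lactose and glucose diets, Tap1 by 2.04, 2.00 and 2.11, and Cxcl10 by 1.98, 3.15 and 2.92 (interaction adjusted p = 0.934, 0.996 and 0.909). Each diet held only 2 or 3 interferon-high mice.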

How the data were processed

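Transcripts were counted in scrapings of the proximal small intestine, 1 library per mouse, and each library is taken as 1 mouse. The authors deposited raw counts per gene, 1 table per library, made with FastQC, STAR and HTSeq on GRCm39, per the submitters' processing notes. Program versions, strand setting, annotation release and read filters are not given in the sources used here. The 5 summary lines of each table were kept out of library sizes and tests. Of 56980 identifiers 52073 were named from a table of an earlier build, so only RefSeq promoter windows carry coordinates, and reads of genes that overlap or lie antisense cannot be told apart.

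The limit of 100 CPM of Ifit3, the gene lists and the rule for named genes were chosen with earlier results of these data known. CPM values are counts relative to library size, scaled with TMM factors. Genes were filtered with filterByExpr by diet in edgeR 4.0.16 (R 4.3.3), which left 14658 genes. Library sizes were the totals over all genes, 19685385 to 21350610 counts. Differences are log2, interferon-high minus other mice, from edgeR's quasi-likelihood F test with diet as a covariate. Tests were two-sided, with Benjamini-Hochberg adjusted p over all tested genes and 0.05 as the threshold. The standard error is the log2 difference over the square root of F. Separate fits covered the title number runs 1 to 18 and 49 to 69, the slope on log2 Ifit3 in the other 32 mice and the interaction with diet. Ifit3 is left out of all counts. Named are Ifit3, Ifit1, Ifit2, Ifit3b, the receptor chains, interferon genes, from each of 28 lists up to 6 called genes of smallest p (up to 3 where none was called), and up to 12 unlisted genes per direction with mean log2 CPM of at least 1. Other genes were added after their values were seen, and some genes are not reported here. Library measures were compared by exact permutation within diets (1740024 arrangements, and 3087 within numbers 49 to 69). Alternatives were DESeq2 1.42.0, limma 3.58.1 voom with quality weights, other scalings, filters, covariates and Ifit3 limits, and leaving out each interferon-high mouse. With the Dbp level as a term and without libraries of 30 to 100 CPM Ifit3 were added after seeing the data. The fits were tested on simulated data. P values measure the spread between these libraries.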

Additional observations from a re-analysis of the deposited data

Results flagged for a closer look

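In 15 of 126 named genes, 1 of the 7 interferon-high mice lay apart from the other 6 by Dixon's test on a log scale of CPM. The test was taken at its 95% critical value, which chance passes in about 1 of 20 groups. Levels below are given as plain CPM, not on the log scale of the test. In 14 of them this mouse was lactose 3 (title number 8), which also had the least Ifit3 of the 7, and it was the lowest each time. Among nucleic acid sensors and effectors it had 20.11 CPM of Zbp1 (next lowest mouse 68.56 CPM), 27.17 CPM of Trim30a (next 83.6 CPM) and 74.55 CPM of Adar (next 114.4 CPM). Among ISG15 conjugation and PARP genes it had 110.3 CPM of Dtx3l (next 193.1 CPM), 111.3 CPM of Parp14 (next 207.1 CPM) and 9.933 CPM of Parp11 (next 22.39 CPM). Among GTPase and class I genes it had 33.72 CPM of Ifi47, 7.698 CPM of Gbp7, 3.675 CPM of H2-T24 and 3.626 CPM of Nlrc5. It further had 59.1 CPM of Tnfsf10, 57.51 CPM of Rnf31, 155.1 CPM of Rnf213 (next 444.1 CPM) and 5.86 CPM of Gm20559. For Cxcl11 the mouse apart was glucose 9, with 2.545 CPM against 4.732 CPM in the next mouse. These genes are correlated, so the flags are not separate observations.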

How the results depend on the processing

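Replicate numbers were given in accession order and are not known to pair mice, but each holds the mice of 1 triplet of title numbers, so the triplet block is also a replicate block. Against 802 higher and 415 lower genes, library totals gave 532 and 738, limma voom 1339 and 941, and the triplet block 190 and 43. Lower genes numbered 244 with no filter, 273 with no diet term and 804 with the Dbp level as a term. The other choices (RLE factors, DESeq2, the filter by group, the run as a term, limits of 50 and 200 CPM, and fits without the pancreatic library or libraries of 30 to 100 CPM Ifit3) stayed within 1.5 times both counts. Leaving out each interferon-high mouse gave 598 to 917 higher and 239 to 606 lower genes, 23 to 150 and 0 to 1 within numbers 1 to 18, and 473 to 839 and 183 to 454 within 49 to 69. With library totals 1 gene was lower within numbers 1 to 18 and 731 within 49 to 69. The downward slopes on Ifit3 numbered 0 without the library highest in Ifit3. The causes were not tested.

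For 126 named genes under these choices, 2510 values kept direction and side of the threshold, 99 lost it (31 genes), 8 gained it and 29 changed sign (17 genes). The triplet block alone ended 30 calls. Of the genes that changed sign only Acadl had passed (log2 -0.0545 with the triplet block). Under that block the sign also changed for Il33 (0.0561), Il1a (-0.0337), Reg3b (0.4746), Retnlg (-0.2392), Mmp9 (-0.5399), Xbp1 (-0.1534), Sdc1 (0.0354), Des (0.1032), Pcna (-0.1086) and Smoc2 (0.2118), and with the Dbp term for Il33 (0.1451) and Ifnar1 (0.036). Ifnar1 was 0.002 at the limit of 200 CPM and -0.0645 to 0.0008 when 1 mouse was left out. Ifnlr1 was -0.047 with library totals, -0.0031 in voom, -0.0011 with no diet term, and -0.027 to 0.0403 when 1 mouse was left out. Il10rb was -0.0153 in voom. Defa22 and Defa21 were -1.391 and -1.046 in voom, and when 1 mouse was left out -1.175 to 1.336 and -1.03 to 1.298, lowest without glucose 9. Csf3r was -0.0118 with library totals and -0.0289 to 0.1349 when 1 mouse was left out. Fisher's exact test of the diets gave p = 0.689 and 0.855 at limits of 50 and 200 CPM, and the triplets limit it there in the same way. Library measures past the threshold numbered 0 in all mice and 0 within numbers 49 to 69.

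Depth limits the interferon genes, which had at most 25 counts in a library.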
